A study of Homo sapiens with 6 samples.

Results

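The 10 genes described here encode the MHC class II antigen presentation machinery and its transcriptional regulators: CIITA, RFX5, HLA-DRA, HLA-DRB1, HLA-DPA1, HLA-DPB1, HLA-DMA, HLA-DMB, CD74 and CTSS. They were taken by name, under a rule that uses no measured value, and all 10 were found by symbol among the 15706 genes of the deposited table. The cells were MDA-MB-231, an established line of triple-negative breast cancer, which lacks the hormone receptors and HER2 amplification. The 3 libraries labelled sgNT came from cells that the labels call wild type, and the 3 labelled sgMLL3 from cells called MLL3 knockout. MLL3 is the older name of KMT2C, a histone H3 lysine 4 methyltransferase that acts at enhancers. Both groups were kept in DMEM with serum, without treatment, so no interferon was added to either group. The labels call the libraries biological replicates and number the libraries of each group, but do not state if each line was 1 clone or a pool, nor the site of the cut. Where replicates were not separate cultures, the p-values measure only the spread between these libraries.

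MHC class II molecules are pairs of an alpha and a beta chain that display peptides from endosomes to CD4+ T cells. They are best known from B cells, dendritic cells and macrophages, and other cells, tumour cells among them, make them mainly in response to interferon gamma. Their promoters share an X box and a Y box, bound by the RFX complex (RFX5, RFXAP, RFXANK), by CREB-family factors and by NF-Y. CIITA binds no DNA itself: it docks on that assembly and recruits chromatin and elongation factors, and its amount is known to set how much class II RNA is made. New class II pairs bind the invariant chain, CD74, which cathepsin S (CTSS) trims in the endosome, and HLA-DM (HLA-DMA with HLA-DMB) then exchanges the remaining fragment for peptide.

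Promoter letters are shown first, with X and Y box matches marked, since these boxes are the known site of the assembly on which CIITA docks. The RefSeq promoter table (GRCh38.p14) held 10 windows for 7 of the 10 genes, each of 250 bases before and 50 after a start. CIITA, HLA-DRA and CTSS had no entry and are named only. The stretches below run 5′ to 3′ from 140 to 11 bases before the start, with capitals for X box and Y box matches.
HLA-DPB1 (chr6:33075850-33075979, plus strand): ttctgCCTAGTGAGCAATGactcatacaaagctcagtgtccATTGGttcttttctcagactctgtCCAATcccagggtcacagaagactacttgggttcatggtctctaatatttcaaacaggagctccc
HLA-DRB1 (chr6:32589859-32589988, minus strand): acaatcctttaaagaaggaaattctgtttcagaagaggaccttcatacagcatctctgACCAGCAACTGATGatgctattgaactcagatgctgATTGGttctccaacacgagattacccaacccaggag
HLA-DMA (chr6:32953108-32953237, minus strand): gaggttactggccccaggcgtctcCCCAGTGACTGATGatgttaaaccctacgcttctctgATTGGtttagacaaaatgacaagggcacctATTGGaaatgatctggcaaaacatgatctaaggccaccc
HLA-DMB (chr6:32941039-32941168, minus strand): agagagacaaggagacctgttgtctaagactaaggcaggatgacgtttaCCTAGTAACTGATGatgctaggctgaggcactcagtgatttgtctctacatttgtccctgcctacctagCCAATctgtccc
CD74 (chr5:150412921-150413050, minus strand): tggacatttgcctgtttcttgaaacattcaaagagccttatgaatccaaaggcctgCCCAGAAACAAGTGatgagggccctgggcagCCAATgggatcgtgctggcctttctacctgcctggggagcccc
HLA-DPA1 (chr6:33073660-33073789, minus strand): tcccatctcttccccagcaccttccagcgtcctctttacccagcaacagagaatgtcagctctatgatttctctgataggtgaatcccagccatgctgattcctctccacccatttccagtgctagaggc
The X box was searched on both strands as CCTAG, any 2 bases, AC, any 2 bases and ATG, with at most 2 mismatches over those 10 letters. The Y box core was ATTGG or its reverse complement CCAAT. An X box match was present in 14.5% of 35116 RefSeq windows of this length and the Y box core in 34.6%, so that neither alone was rare.

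HLA-DPB1, HLA-DRB1 and HLA-DMA carried both in 1 arrangement, an X box match followed on the same strand by ATTGG after a gap of 22, 22 and 23 bases. That arrangement, with a gap of 20 to 25 bases, was defined after these windows had been read, and 37 windows of all promoters (0.105%) held it. Of those 37, 8 belonged to class II genes: the 3 above, HLA-DOA, HLA-DOB, HLA-DQB1, HLA-DQB2 and HLA-DRB5. The class I genes HLA-C and HLA-F, each with 2 mismatches, and MR1, a class I-like gene with 0 mismatches, were also among the 37. The HLA-DMB window held an X box with 0 mismatches and a CCAAT, and the CD74 window X box matches with 2 mismatches and a CCAAT. Neither of the 2 HLA-DPA1 windows held a match to either motif, and the one shown is therefore without capitals. Of the 3 RFX5 windows, 1 held 2 X box matches with 2 mismatches and 2 Y box cores, but not in the arrangement above. Another held an IRF element, written GAAA, any 2 bases, GAAA, which 3.57% of all windows held. The GAS element TTCNNNGAA was in 7.66% of all windows and in none of those of the 7 genes. Each match describes letters only and shows no binding.

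The libraries held 41240265 to 49514464 recovered reads in the listed genes. Values below are normalized read counts, that is reads divided by 1 size factor per library, and a log2 fold change is sgMLL3 minus sgNT on log2(value + 1), with its standard error (SE). A gene is called lower or higher where its limma p, adjusted by Benjamini-Hochberg over 14618 genes, was under 0.05. In these terms 14.4% of all genes were lower and 18.9% higher. KMT2C itself was at 1367, 1379 and 1255 in sgNT and at 1519, 1660 and 1339 in sgMLL3 (0.17, SE 0.10, adjusted p = 0.205), so its RNA gave no check of the label. Fold changes followed the GC content of the transcript over all genes (Spearman's rho = -0.673 over 14598 genes, which are not independent replicates). The fold changes of the 10 genes are therefore also given after the trend along GC content and transcript length was subtracted within each library; 5.95% of genes were then lower and 4.08% higher. On principal component 2, sgNT replicate 1 lay at 34.9 and the other 5 libraries between -15.1 and -2.03.

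The line was checked against markers, since professional antigen-presenting cells hold far more class II RNA. All 7 markers of MDA-MB-231 and mesenchymal-like breast cancer cells were present, with means from 1497 (TGFBI) to 52145 (AXL). The hormone receptor genes ESR1 and PGR were not among the rows used here, whereas ERBB2, the gene of HER2, was present at a mean of 5388. All 4 epithelial markers were listed as well, KRT8 at a mean of 50412, KRT18 at 14647, EPCAM at 864 and CDH1 at 4.80. Of 6 B cell markers only CD79A was among the rows used here, at 7.34 to 19.5 counts. Of 11 myeloid and dendritic markers 8 were, with a summed level of 643 to 858 in sgNT and 442 to 543 in sgMLL3. LYZ, the lysozyme of macrophages, was at 1.07 to 10.8 counts. CD14 was the single myeloid marker called with all libraries as deposited, at 194, 410 and 482 in sgNT against 209, 197 and 222 in sgMLL3 (-0.69, SE 0.24, limma adjusted p = 0.032). Among 4 pan-leukocyte genes, LCP1 was higher and CORO1A and LAPTM5 were lower, with a sum of 3908 to 4111 in sgNT and 4019 to 4745 in sgMLL3. LCP1 made up most of that sum, with means of 2473 in sgNT and 3201 in sgMLL3. The means of the others were lower in sgMLL3, from 626 to 482 for CORO1A, 634 to 496 for LAPTM5 and 278 to 221 for PTPRC. Once the trend was removed, CD14 (-0.46, adjusted p = 0.28), CORO1A (adjusted p = 0.41) and LAPTM5 (adjusted p = 0.17) no longer passed, LCP1 was still higher (0.26, adjusted p = 0.033), and PTPRC, the leukocyte phosphatase CD45, was lower (-0.76, adjusted p = 0.013). The part of these genes in the class II results was not tested.

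Of the 10 genes, 5 fell in the sgMLL3 libraries: CIITA, HLA-DRA, HLA-DPA1, HLA-DMB and CD74. None rose, and since all 10 log2 fold changes were negative, none was higher at an unadjusted p under 0.05 in limma, edgeR or DESeq2 either. The median log2 fold change of the 10 was -0.44, beside -0.017 over all genes tested. In 7 of the 10 the ranges of the groups were apart, all with sgMLL3 lower, while 22.4% of all genes separated in that way. With the GC and length trend removed 4 of the 10 were lower, and the median was -0.42, beside -0.018 over all genes. Those 4, CIITA, HLA-DRA, HLA-DPA1 and HLA-DMB, were called in both analyses. Of all genes, 14.4% were lower as deposited and 5.95% with the trend removed, and the share lower in both was not counted.

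**Figure D1:**
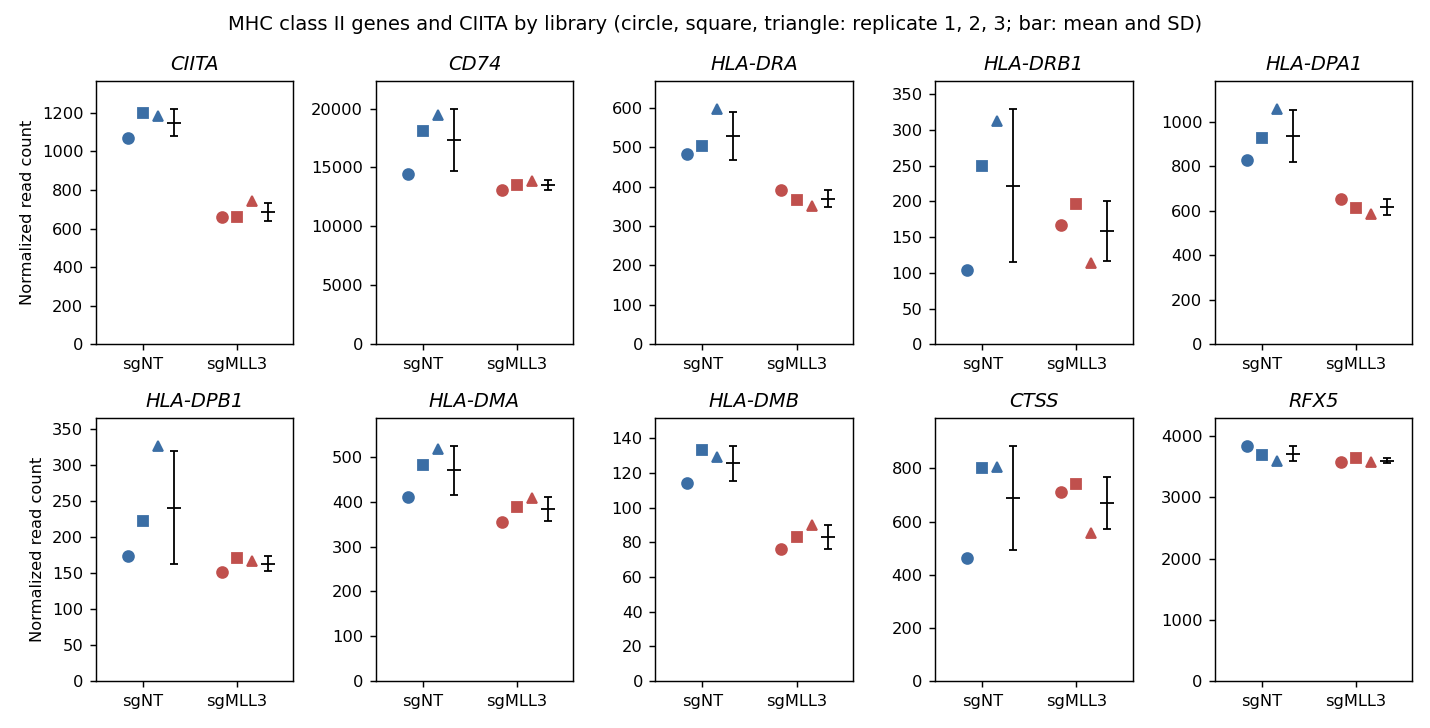
Normalized read count of each gene in the 6 libraries, 1 panel per gene, with sgNT and sgMLL3 side by side; points are libraries and bars are group means. CIITA, HLA-DPA1, HLA-DRA and HLA-DMB lie in separate ranges in the 2 groups, whereas HLA-DRB1, CTSS and RFX5 overlap.

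CIITA (ENSG00000179583.19; chr16:10866222-10943021 on GRCh38, plus strand), the class II transactivator, was counted at 1071, 1197 and 1181 in sgNT replicates 1, 2 and 3 and at 659, 658 and 742 in sgMLL3 replicates 1, 2 and 3. The highest sgMLL3 library lay well below the lowest sgNT library. Its mean fell by 40.3%, from 1150 ± 69.0 to 686 ± 48.5 (SD, n = 3 each). The log2 fold change was -0.74 (SE 0.11, 95% interval -0.97 to -0.52, limma adjusted p = 0.000103), and with the trend removed -0.71 (SE 0.085, adjusted p = 0.0012). It stayed between -0.80 and -0.71 when any 1 library was left out, and it passed the threshold in each of the 23 alternative analyses. In bulk RNA, fewer cells with CIITA and less CIITA RNA per cell cannot be told apart. CIITA overlaps the gene DEXI on the opposite strand over 13570 bases, and the strand setting of the counting is not given in the sources used here. This overlap and those given below are of whole gene spans with introns, and shared exons were not measured. DEXI was at 222 ± 62.9 in sgNT and 181 ± 36.5 in sgMLL3 (-0.27, SE 0.20, limma adjusted p = 0.31).

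RFX5 (ENSG00000143390.17; chr1:151340640-151347357, minus strand), the DNA-binding subunit of the RFX complex, was at 3843, 3700 and 3596 in sgNT and 3581, 3643 and 3574 in sgMLL3. The ranges overlapped and the libraries were close together. The log2 fold change was -0.044 (SE 0.080, 95% interval -0.21 to 0.12, limma adjusted p = 0.70), so a fall of the size seen for CIITA lay outside the interval. After trend removal it was -0.009 (adjusted p = 0.94).

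The alpha chain genes both fell. HLA-DRA (ENSG00000204287.14; chr6:32439842-32445046, plus strand) encodes the nearly invariant alpha chain of HLA-DR, and was counted at 483, 505 and 597 in sgNT and at 393, 367 and 350 in sgMLL3. The groups did not overlap, and the mean fell by 29.9%, from 528 ± 60.6 to 370 ± 21.4 (SD, n = 3 each). The log2 fold change was -0.51 (SE 0.13, limma adjusted p = 0.0071), and with the trend removed -0.49 (SE 0.11, adjusted p = 0.019). HLA-DPA1 (ENSG00000231389.7; chr6:33064569-33080775, minus strand), the alpha chain of HLA-DP, was counted at 827, 926 and 1057 in sgNT and at 653, 611 and 584 in sgMLL3. It had the second largest fall of the 10 after CIITA, 34.2%, from 937 ± 115 to 616 ± 34.9 (log2 fold change -0.60, SE 0.12, limma adjusted p = 0.0011). Trend removal made the value -0.83 (SE 0.11, adjusted p = 0.0018). Like CIITA, it passed in all 23 alternatives, and its log2 fold change ran from -0.68 to -0.51 with 1 library left out.

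The beta chain partners did not pass the threshold, and their difference from the alpha chains was not tested. HLA-DPB1 (ENSG00000223865.11; chr6:33075926-33087201, plus strand) was at 173, 222 and 326 in sgNT and 151, 170 and 167 in sgMLL3, so the groups were apart but sgNT spread widely. Its change of -0.51 in log2 (SE 0.20, 95% interval -0.93 to -0.097) had a limma adjusted p of 0.054, whereas edgeR gave 0.034 and DESeq2 0.026, both on recovered reads. Trend removal gave -0.45 (SE 0.21, limma adjusted p = 0.19). The authors' deposited table lists it at an adjusted p of 0.0267. The gene spans of HLA-DPB1 and HLA-DPA1 overlap over 4850 bases on opposite strands. Reads of the one may have been counted in the other where exons are shared, which was not measured. HLA-DRB1 (ENSG00000196126.11; chr6:32578769-32589848, minus strand), the polymorphic beta chain of HLA-DR, was at 104, 249 and 313 in sgNT and 167, 196 and 114 in sgMLL3. The groups overlapped, and the lowest value of all stood in sgNT replicate 1. Its log2 fold change was -0.38 (SE 0.30, 95% interval -0.995 to 0.244, limma adjusted p = 0.34), an interval that holds both the fall of HLA-DRA and no difference. After removal of the trend, -0.17 was left (SE 0.34, adjusted p = 0.80). HLA genes have close paralogs and differ between people, so the count of HLA-DRB1 in particular is uncertain.

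Of the 2 chains of HLA-DM, the peptide exchange factor, HLA-DMB passed the threshold and HLA-DMA did not; the difference between them was not tested. HLA-DMB (ENSG00000242574.9; chr6:32934629-32941070, minus strand) was the gene with the fewest reads of the 10, with 72 to 134 per library, and was at 114, 133 and 129 in sgNT and 76.1, 83.3 and 89.9 in sgMLL3. It fell by 33.8% on the means, with no overlap between the groups (-0.59, SE 0.20, limma adjusted p = 0.032; trend removed -0.62, SE 0.18, adjusted p = 0.048). HLA-DMA (ENSG00000204257.15; chr6:32948613-32969094, minus strand) was at 412, 481 and 519 in sgNT and 355, 388 and 409 in sgMLL3. The groups were apart by a narrow margin, and the log2 fold change of -0.29 (SE 0.13, 95% interval -0.56 to -0.011) did not pass (limma adjusted p = 0.10; trend removed -0.17, adjusted p = 0.40). HLA-DMA overlaps BRD2 over 435 bases on the opposite strand. On the same strand, AL645941.2, a protein-coding gene of GENCODE 29 that is not among the rows used here, overlaps HLA-DMA over 4510 bases and HLA-DMB over 3707, so the counting of both is uncertain.

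CD74 (ENSG00000019582.15; chr5:150401637-150412929, minus strand), the invariant chain that guides class II to the endosome, was the most abundant of the 10 by a wide margin. It was counted at 14413, 18117 and 19453 in sgNT and at 13078, 13551 and 13869 in sgMLL3. It fell by 22.1%, from 17328 ± 2611 to 13499 ± 398 (SD, n = 3 each), and the log2 fold change was -0.35 (SE 0.095, limma adjusted p = 0.011). This call was lost with the trend removed (-0.11, SE 0.079, adjusted p = 0.43) and without sgMLL3 replicate 1 (-0.33, adjusted p = 0.056). CTSS (ENSG00000163131.11; chr1:150730196-150765957, minus strand), the protease that trims CD74, was at 463, 800 and 804 in sgNT and 710, 742 and 557 in sgMLL3. The sgMLL3 values lay inside the sgNT range, and the log2 fold change was -0.0075 (SE 0.17, 95% interval -0.37 to 0.36, limma adjusted p = 0.98). Trend removal moved it to -0.39 (SE 0.20, adjusted p = 0.25).

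**Figure D2:**
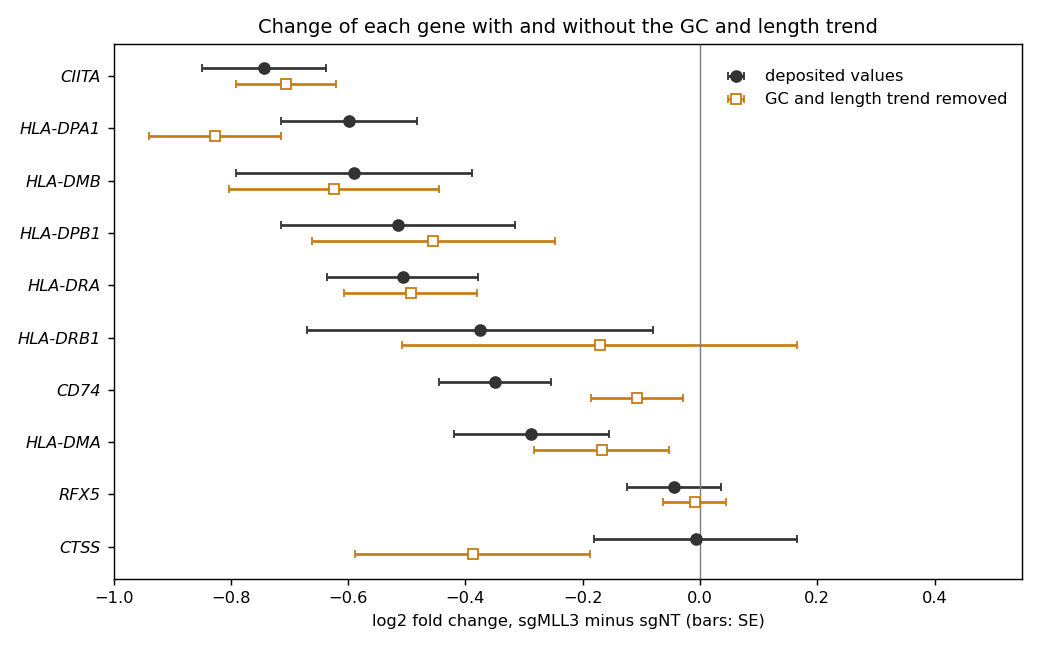
Log2 fold change of each gene (sgMLL3 minus sgNT) from the deposited values (circles) and with the GC and length trend removed (squares); bars are the SE. CIITA is at -0.74 and -0.71, CD74 moves from -0.35 to -0.11, and the bars of RFX5 reach across 0.

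Scaled to the length of the GENCODE principal transcript, the 10 genes differed by orders of magnitude in level. In sgNT, CD74 stood at 17664 normalized counts per kilobase (library range 14693 to 19830) and RFX5 at 1038 (1006 to 1075). HLA-DPA1 followed at 550 (486 to 620), then HLA-DMA at 419 (366 to 462) and HLA-DRA at 413 (377 to 466), whose ranges overlapped. HLA-DRB1 (181), CTSS (168) and HLA-DPB1 (154) could not be ordered, since their libraries ran from 85.0 to 255, from 113 to 196 and from 111 to 209 counts per kilobase. HLA-DMB was at 89.9 (81.7 to 95.3), within the spread of HLA-DRB1 alone, and CIITA last at 71.6 (66.7 to 74.6), although the place of CIITA depends on its principal transcript of 16059 bases. In sgMLL3 the order was the same except that CTSS (163, from 136 to 181) stood above HLA-DRB1 (129, from 92.6 to 159). The ranges of CTSS and HLA-DRB1 overlapped. HLA-DPA1 (361, from 342 to 383) and HLA-DMA (342, from 316 to 364) then overlapped.

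Whether the target genes changed by as much as their transactivator was asked through the log2 ratio of each gene to CIITA in the same library. That ratio was higher in sgMLL3 for 9 of 9 genes. Each difference is the log2 fold change of the gene minus that of CIITA. CIITA had the most negative log2 fold change (-0.74, followed by HLA-DPA1 at -0.60). The count of 9 therefore restates this rank and does not answer the question by itself. For RFX5 (-0.044) and CTSS (-0.0075), neither of which was called lower, the ratio mainly reflected the fall of CIITA itself. For CD74 the log2 ratio was 3.75, 3.92 and 4.04 in sgNT and 4.31, 4.36 and 4.22 in sgMLL3, a difference of 0.40 with no overlap. Groups were also apart for RFX5 (difference in log2 ratio 0.70), CTSS (0.74), HLA-DMA (0.46) and HLA-DMB (0.15). For each of these 5 the exact two-sided permutation p was 0.1, the smallest that 3 against 3 libraries can give, and 0.18 adjusted over the 9 ratios, so none could pass. The ratios overlapped for HLA-DRA (0.24), HLA-DPA1 (0.15), HLA-DPB1 (0.23) and HLA-DRB1 (0.37), with exact permutation p-values of 0.2, 0.2, 0.4 and 0.6. The 9 ratios share the CIITA values and are not independent. With the trend removed the difference for HLA-DPA1 turned to -0.12, and without sgNT replicate 1 that for HLA-DRB1 was -0.051.

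The class II genes were then set against genes of like base composition, because GC content alone went with different fold changes. Around CTSS, at 39.5% GC, the 1143 genes within 1 percentage point centred on a log2 fold change of 0.40 (median), and 0.525% were lower. Around HLA-DPA1, at 43.4% GC, the median was 0.20 and 1.25% of 1276 genes were lower, which HLA-DPA1 was. HLA-DRA and HLA-DMB, at 47.2% and 47.4% GC, had neighbours with medians of 0.014 and 0.0017, of which 3.89% and 3.71% were lower. For CIITA, at 52.7% GC, the neighbours' median was -0.14 and 16.9% were lower, and for CD74, at 58.7% GC, it was -0.23 and 36.4% were lower. By this measure CD74 was in a range of GC content where falls were common, and HLA-DPA1 in one where they were rare. GC content and length, here and in the trend removal, were those of the longest transcript. That transcript was longer than the principal one for HLA-DPA1 (5025 against 1704 bases), HLA-DMB (4569 against 1397), CD74 (1727 against 981) and HLA-DMA (1735 against 1123). The principal transcripts were not tried. For CIITA the longest and the principal transcript had the same length, 16059 bases. Among principal transcripts of equal rank the longest was taken, and no shorter one was tried for CIITA. In all, 9 of the 10 genes lay below the median of their neighbours, the exception being RFX5.

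**Figure D3:**
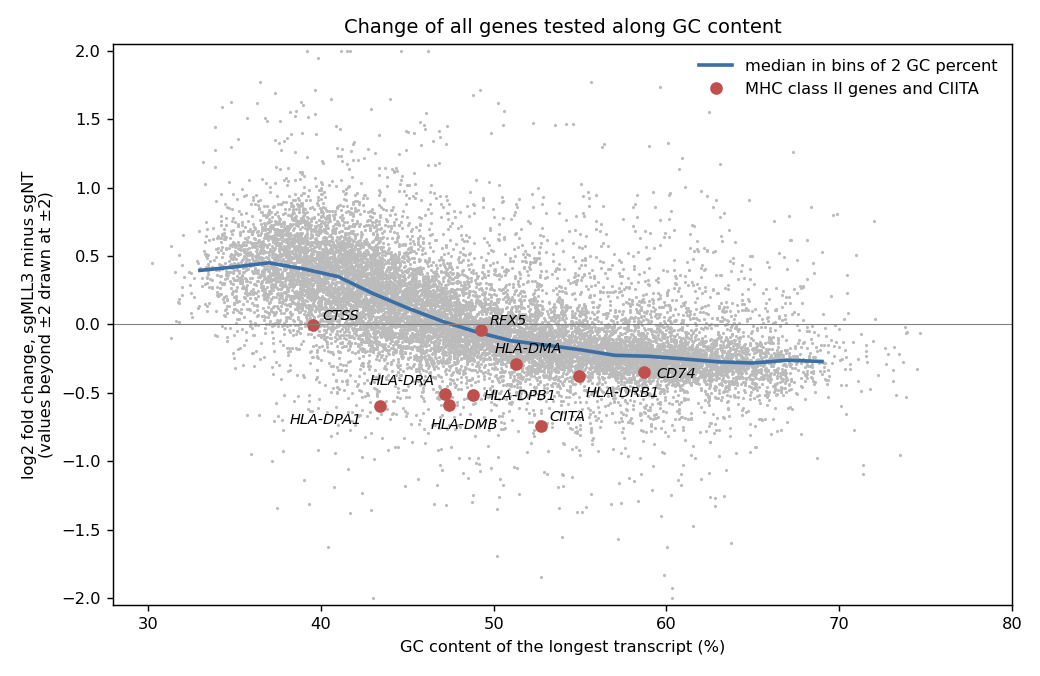
Log2 fold change against the GC content of the longest transcript (%) for all genes tested (grey), with the median in bins of GC content (line) and the 10 genes marked. RFX5 lies at the line and the other 9 genes lie below it, HLA-DPA1 and CIITA by more than CD74.

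Libraries of 1 group did not weigh equally. sgNT replicate 1 was the lowest of the sgNT libraries in 9 of the 10 genes, all but RFX5, while it was lowest in 35.4% of all genes tested. Without it 8 of the 10 genes were lower in sgMLL3, beside 19.6% of all genes. HLA-DRB1 then stood at -0.85 (limma adjusted p = 0.00079), HLA-DPB1 at -0.73 (adjusted p = 0.0017) and HLA-DMA at -0.38 (adjusted p = 0.022). Without sgNT replicate 3 instead, HLA-DPB1 was at -0.27 (adjusted p = 0.33) and HLA-DMA at -0.21 (adjusted p = 0.30). Without sgNT replicate 1 and with the trend removed as well, 8 were again lower, beside 14.5% of all genes, with CTSS at -0.69 in place of HLA-DMA. Without sgMLL3 replicate 1 only CIITA, HLA-DRA and HLA-DPA1 were lower, beside 3.8% of all genes. These 3 genes passed whichever library was left out. The share of all genes that passed in every such fit was not counted, with or without trend removal. With the trend removed as well, CIITA and HLA-DPA1 passed each time, and in the 5 fits that kept sgNT replicate 1 they were the 2 genes called. HLA-DRA missed the threshold in those 5 fits, with adjusted p-values from 0.054 to 0.088. HLA-DMB passed only without sgNT replicate 1 or without sgMLL3 replicate 3, and its log2 fold change ran from -0.66 to -0.53. The size of its fall thus varied little, while its call was lost without any 1 of the other 4 libraries.

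**Figure D4:**
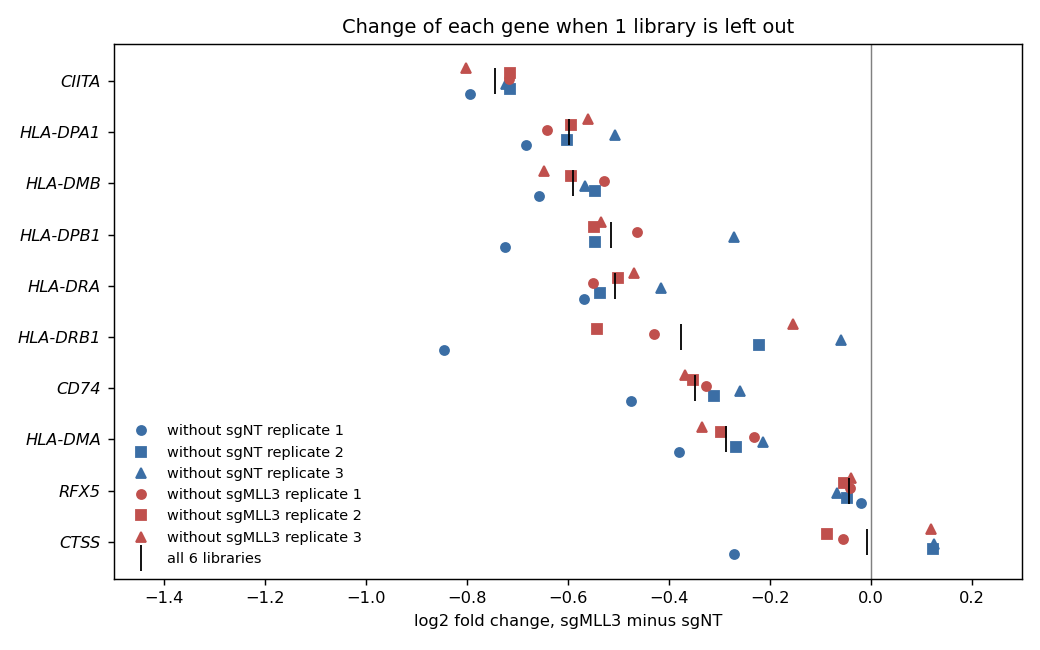
Log2 fold change of each gene (sgMLL3 minus sgNT) with all 6 libraries (vertical tick) and with each library left out in turn (colour gives the group, shape the replicate). CIITA stays between -0.80 and -0.71, whereas HLA-DRB1 runs from -0.85 without sgNT replicate 1 to -0.059 without sgNT replicate 3.

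Other tests gave like counts. edgeR's quasi-likelihood test on recovered reads called 6 of the 10 lower, beside 15.3% of all genes, and DESeq2 also called 6, beside 17.9% of the genes to which it gave an adjusted p. The authors' deposited table lists 6 at an adjusted p under 0.05 and lower, beside 17.4% of the genes with an adjusted p there. The sixth gene in each was HLA-DPB1.

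The genes whose pattern over the 6 libraries was most like that of CIITA were sought among 12453 genes with a mean of at least 50, by the root mean square difference of centred log2 values. The 5 nearest were COL6A2, a collagen VI chain (0.059), NLRC3, a NOD-like receptor of the family to which CIITA belongs (0.059), ROBO4, a roundabout receptor (0.061), FAM43A (0.062) and MSLN, the surface protein mesothelin (0.076). Their log2 fold changes were -0.78, -0.72, -0.78, -0.75 and -0.69, near that of CIITA, which the choice of the measure brings about. NLRC3 was at 72.2, 80.5 and 71.5 counts in sgNT and 43.3, 44.3 and 46.8 in sgMLL3. Of the class II genes HLA-DMB ranked 8th from CIITA (0.088), HLA-DPA1 stood at rank 74 (0.14) and HLA-DRA at rank 174 (0.17). CD74 was at rank 717, HLA-DMA at 1222, HLA-DPB1 at 2118, RFX5 at 5433, CTSS at 7728 and HLA-DRB1 at 9416.

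Further genes of the pathway were taken from 5 lists by their known role, and 41 of them could be tested. Of these 11 were higher and 8 lower, beside 18.9% and 14.4% of all genes. With the trend removed 2 were higher and 2 lower, beside 4.08% and 5.95% of all genes, so the pathway was near the share of all genes. Just 2 of the 41 were called in the same direction both times: IRF1, lower, and KAT2B, higher. The share of all genes called both times is not given here, so these 2 are described singly. IRF1, the transcription factor that carries interferon gamma signals to the CIITA promoter, was at 2114, 2345 and 2853 in sgNT and 1789, 1745 and 1816 in sgMLL3. The groups did not overlap, and the log2 fold change was -0.44 (SE 0.10, limma adjusted p = 0.0045; trend removed -0.34, adjusted p = 0.027). KAT2B, an acetyltransferase that CIITA binds, was at 1217, 1208 and 945 in sgNT and 1652, 1622 and 1472 in sgMLL3 (0.50, SE 0.11, limma adjusted p = 0.0027; trend removed 0.32, adjusted p = 0.031).

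Among 13 measured factors known to act on CIITA transcription, 3 were higher and 2 lower, beside 18.9% and 14.4% of all genes. The higher ones were parts of the interferon gamma receptor complex: IFNGR1, the ligand-binding chain (0.52, adjusted p = 0.00085), and the kinases JAK2 (0.73, adjusted p = 0.0028) and JAK1 (0.21, adjusted p = 0.049). IFNGR2, the other chain of the receptor, was not called (-0.11, limma adjusted p = 0.37) and was at 0.070 with the trend removed. SMARCA4, the ATPase of SWI/SNF remodelling complexes, fell beside IRF1 (-0.31, adjusted p = 0.011). USF1, a factor of the CIITA promoter, was at -0.14 (adjusted p = 0.22; 0.044 with the trend removed), and SOCS1, an inhibitor of JAK signalling, at -0.28 (adjusted p = 0.24). With the trend removed IFNGR1, JAK2, JAK1 and SMARCA4 no longer passed, and IRF1 remained. SMARCA4 also missed it without sgMLL3 replicate 1 (adjusted p = 0.086). When 1 library was left out, IFNGR1, JAK2 and IRF1 passed each time, and JAK1 passed without sgNT replicate 1 alone. JAK1 also missed the threshold with TMM scaling (adjusted p = 0.054) and by edgeR (0.059). With both changes IRF1 passed without sgNT replicate 1 (adjusted p = 2.9e-05) and had adjusted p-values from 0.069 to 0.12 in the other 5 fits. KAT2B likewise passed without sgNT replicate 1 (adjusted p = 0.00072) and was at 0.051 to 0.15 in the others.

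Among the 7 other factors of the class II promoter, CREB1 (0.51, adjusted p = 0.00065), ATF1 (0.55, adjusted p = 0.00099) and NFYA (0.28, adjusted p = 0.040) were higher, and RFXANK, a partner of RFX5, was lower (-0.34, adjusted p = 0.011). None of these 4 passed with the trend removed. CREB1 and ATF1 passed whichever library was left out, RFXANK missed the threshold without sgMLL3 replicate 2 (adjusted p = 0.087), and NFYA passed only without sgNT replicate 1 or sgMLL3 replicate 3 and missed it with quantile scaling (adjusted p = 0.0503). NFYB, another subunit of NF-Y, was at -0.025 (adjusted p = 0.86) with all libraries as deposited and at -0.45 (adjusted p = 0.0067) with the trend removed. RFXAP and NFYC were at -0.13 and -0.047 (adjusted p = 0.63 and 0.72), NFYC at 0.056 with the trend removed. The promoter assembly thus held calls in both directions, and each depended on whether the trend was removed. Of all genes, 18.9% were higher and 14.4% lower with the values as deposited.

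Of 9 chromatin and elongation factors known to bind CIITA, 3 were higher and 3 lower, beside 18.9% and 14.4% of all genes. The higher ones were KAT2B, CCNT1 (0.57, adjusted p = 0.0017), a cyclin of the elongation factor P-TEFb, and the deacetylase HDAC2 (0.37, adjusted p = 0.0024, but -0.085 with the trend removed). CARM1 (-0.39, adjusted p = 0.0033), CREBBP (-0.31, adjusted p = 0.013) and CDK9 (-0.29, adjusted p = 0.015), the kinase partner of CCNT1, were lower. NCOA1 (0.25, adjusted p = 0.086) and EP300 (-0.074, adjusted p = 0.55) did not pass. KAT2B alone was called with the trend removed. Leaving out sgMLL3 replicate 1 cost CREBBP its call (adjusted p = 0.085), and leaving out sgNT replicate 3, sgMLL3 replicate 1 or sgMLL3 replicate 2 cost CDK9 its call (0.054 to 0.096).

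Among 11 measured genes of endosomal processing, the proteases CTSB (-0.30, adjusted p = 0.0097) and LGMN (-0.34, adjusted p = 0.019) were lower, beside 14.4% of all genes. The protease CTSV (0.58, adjusted p = 0.023) and the ubiquitin ligase MARCHF1 (0.91, adjusted p = 0.043), which drives class II turnover, were higher, beside 18.9% of all genes. CTSD was at -0.22 (adjusted p = 0.057) and SPPL2A, which cuts the last remnant of CD74, at 0.23 (adjusted p = 0.075), and trend removal turned both signs (0.030 and -0.20). With the trend removed none of the 4 called genes passed, and CTSL was higher (0.27, adjusted p = 0.018). CTSB missed the threshold without sgMLL3 replicate 1 or 2 (adjusted p = 0.053 and 0.052), and CTSV without sgNT replicate 2 or sgMLL3 replicate 1 or 2 (0.052 to 0.13). LGMN passed only without sgNT replicate 1 or sgMLL3 replicate 3 when a library was left out. MARCHF1 was a low gene, at 50.6, 20.4 and 28.98 counts in sgNT and 71.8, 54.9 and 53.2 in sgMLL3, and passed only without sgNT replicate 1 when a library was left out. It also missed the threshold by edgeR (adjusted p = 0.067), by DESeq2 (0.054) and with quantile scaling (0.055), whereas CTSD passed by edgeR (0.0496) and DESeq2 (0.046). Of 8 further class II chains, HLA-DRB5 was at 168, 260 and 271 in sgNT and 144, 208 and 155 in sgMLL3 (-0.45, SE 0.20, limma adjusted p = 0.092), with sgNT replicate 1 lowest of its group. HLA-DOA, with a mean of 9.93 counts, was under the filter, and the other 6 were not analysed here. All p-values of pathway genes are limma's, adjusted over all genes tested.

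**Figure D5:**
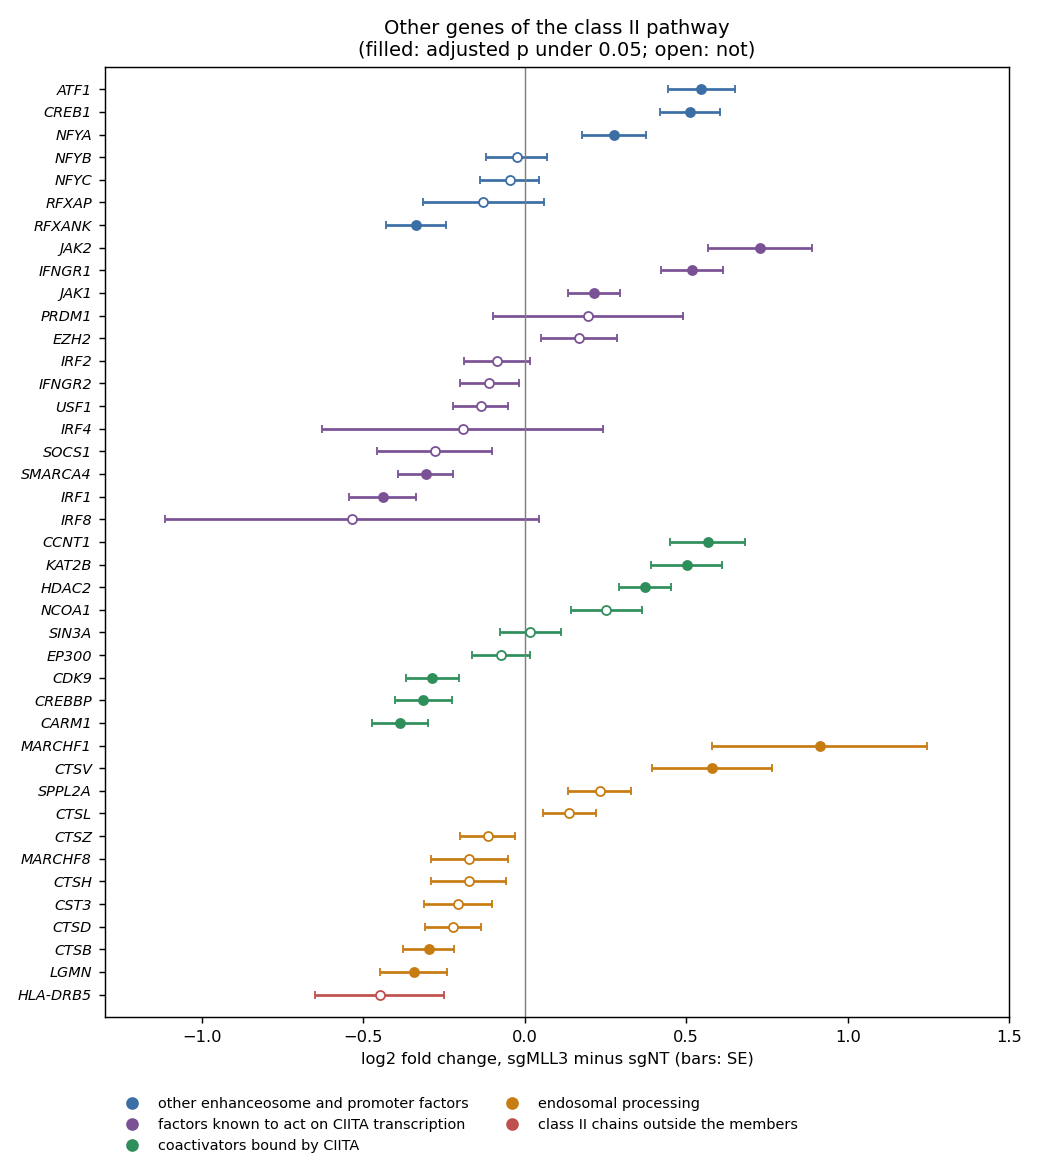
Log2 fold change (sgMLL3 minus sgNT) of the 41 further pathway genes, coloured by list, from all 6 libraries; bars are the SE and filled points have a limma adjusted p under 0.05. Calls lie on both sides of 0 in each list with more than 1 gene, with IFNGR1 and JAK2 to the right and IRF1 to the left.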

How the data were processed

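RNA-seq libraries of 3 sgNT and 3 sgMLL3 samples were compared. The submitters' processing notes name STAR 2.4.0, featureCounts 1.5.0, DESeq2 1.30.1 and FastQC, and the build GRCh38.p13; which annotation, strand option or filter was used is not given in the sources used here. Per the file headers, the table that the authors deposited has a normalized count per library (a signal: reads divided by a size factor), a log2 fold change with its standard error, a test score, a p-value and an adjusted p-value. Each gene listed had 1 read or more in all 6 libraries; genes without reads in some library are thus outside the comparison. Values were whole multiples of 1 step per library (100% within 0.01), which gave recovered reads.

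The test was limma 3.58.1 under R 4.3.3 (trended variance) on log2(value + 1) for genes with a mean of at least 10. It was two-sided, adjusted by Benjamini-Hochberg, and passed under 0.05. For trend removal, natural splines with 5 terms each of GC content and log2 length of the longest GENCODE 29 transcript were subtracted per library. Alternatives were other pseudocounts and filters, quantile and TMM scaling, a replicate block, edgeR 4.0.16 and DESeq2 1.42.0 on recovered reads, and each library left out. Scripts were tested on simulated data. Same-numbered libraries were not treated as pairs.

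Named genes are the 10 members, KMT2C, pathway genes that passed and up to 2 per list that did not (smallest adjusted p), and the 5 genes nearest to CIITA. CTSL and NFYB, which passed with the trend removed, IFNGR2, DEXI, BRD2, HLA-DOA and single markers were added after their values were seen. 1 further gene of the pathway lists is not reported here. Members, lists and tests were chosen with earlier results of these data known.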

Additional observations from a re-analysis of the deposited data

How the results depend on the processing

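Under 23 alternatives CIITA and HLA-DPA1 kept their direction and their call. The count of members lower, 5 as reported, was 7 with quantile scaling, 6 by edgeR and by DESeq2, 4 with the GC and length trend removed, and 3 to 8 with 1 library left out (2 to 8 with the trend removed as well). The pathway genes numbered 8 lower and 11 higher as reported, 2 and 2 with the trend removed, 3 to 13 lower and 7 to 13 higher with 1 library left out, and 0 to 10 lower and 0 to 4 higher with both changes. Over all genes, 2099 lower and 2760 higher became 868 and 595 with the trend removed, 556 to 2868 lower and 1587 to 3300 higher with 1 library left out, and 252 to 2110 lower and 127 to 1490 higher with both. The highest of each count came without sgNT replicate 1, and the lowest came, alone or tied, without sgMLL3 replicate 1. Quantile scaling, edgeR and DESeq2 called 2258, 2230 and 2372 genes lower in all. The cause was not tested.

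Same-numbered libraries correlated at 0.066, 0.0063 and 0.13 in their deviations from the group means, and 4 of 6 libraries correlated best with their own number. These values do not decide whether the numbers mark pairs. The main test did not use the numbers as pairs, and a replicate block was run as an alternative. The replicate block gave 7 members lower, 10 pathway genes lower and 13 higher, and 3024 genes lower and 3241 higher in all. The replicate block with the trend removed gave 3 members lower, 2 pathway genes in each direction, and 773 genes lower and 540 higher; KMT2C was at -0.039.

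Some log2 values changed sign. Trend removal, with and without the replicate block, gave KMT2C -0.039, NFYC 0.056, CTSD 0.030, SPPL2A -0.20, USF1 0.044 and HDAC2 -0.085, and trend removal alone turned the ratio of HLA-DPA1 to CIITA to -0.12. The lowest and highest values over the fits without 1 library, with or without trend removal, were -0.85 and 0.11 for HLA-DRB1, -0.69 and 0.13 for CTSS, -0.067 and 0.019 for RFX5, -0.079 and 0.25 for KMT2C, -0.52 and 0.016 for NFYB, -0.078 and 0.095 for NFYC, -0.30 and 0.060 for CTSD, -0.23 and 0.30 for SPPL2A, -0.40 and 0.16 for SOCS1, -0.18 and 0.076 for USF1, -0.11 and 0.41 for HDAC2, -0.040 and 0.31 for NCOA1, -0.13 and 0.013 for EP300, and -0.051 and 0.67 for the ratio of HLA-DRB1 to CIITA. The quoted signs of these genes therefore hold for the deposited values with all 6 libraries.

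HLA-DMB, with 72 to 134 reads per library, and HLA-DRB1, with 97 to 324, had the least depth and the SEs of 0.20 and 0.30 given above.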
